A study of Mus musculus with 6 samples.

Results

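The 9 genes described here, Epo, Vegfa, Hif1a, Epas1, Arnt, Vhl, Egln1, Egln2 and Egln3, make up the oxygen-sensing pathway of the kidney and its best-known secreted products. They were chosen by name from 21757 protein-coding genes of the GENCODE M39 annotation on GRCm39. Each gene was taken from 3 kb before its annotated start to its end, and 103 of the 279569 accessible intervals in a pooled ATAC-seq peak list overlapped these regions. ATAC-seq marks open chromatin by the DNA that a transposase can cut, and an interval is a stretch of sequence that the peak caller found enriched for such cuts. The interval's value here is the fold enrichment over background at its highest summit.

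The series holds 3 WT and 3 Acly cKO libraries from nuclei of the mouse kidney (cortex, by the study's methods), all labelled as control treatment. By the study's methods the controls were littermates that carried the floxed Acly allele (Acly fl/fl) without Cre, and the Acly cKO mice were Acly fl/fl with Ksp-Cre, driven by Cdh16 and active in the epithelium of proximal tubule, distal tubule and collecting duct. The methods give an age for the mice of the injury models, but no age or strain for the ATAC-seq animals by name. Their labels name batches 1 and 2 for WT and 4 and 5 for Acly cKO, with no batch in common, so an effect of batch cannot be told apart from genotype. The authors deposited 1 peak list over the pooled libraries. Their methods also describe WT libraries from an earlier deposit, which are not part of this series. The list does not show whether those entered the pool, how deeply each was sequenced or how much they varied, so the 2 genotypes were not compared, no value below has a replicate error, and differences between genes are descriptions with no test.

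In normal oxygen the prolyl hydroxylases Egln1, Egln2 and Egln3 mark the HIF alpha subunits, Vhl recognises the mark and the subunits are degraded. When oxygen falls, Hif1a or Epas1 (HIF-2 alpha) accumulates, pairs with Arnt (HIF-1 beta) and binds short elements, the hypoxia response elements, in genes such as Vegfa and Epo. In the kidney, erythropoietin comes from interstitial fibroblast-like cells between the tubules, which Ksp-Cre does not target, and the hormone drives red cell production in bone marrow.

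The labelled tissue was checked against markers. All 10 proximal tubule markers, 7 of 8 markers of the thick ascending limb and distal tubule, 8 of 9 collecting duct markers and all 6 podocyte markers had an interval within 1 kb of the gene start. The same held for all 7 endothelial and all 10 interstitial markers and for 5 of 8 immune markers. Of 10 markers of other organs 4 had one, with a fold enrichment of at most 2.95 (Alb, the albumin gene of liver). At the start that most coding transcripts share, 5 of them had one, and Ins2 had 3.40-fold. At the gene start some kidney markers lay below Alb, among them Pecam1 at 2.49-fold and Hnf4a at 1.96-fold. At the start that most coding transcripts share, Pecam1 had 1.77-fold and Hnf4a 25.7-fold. Medians of the kidney lists at the gene start ran from 2.10-fold (immune) to 12.5-fold (podocyte), with 10.6-fold for proximal tubule. The median was 0 for other organs and 17.5-fold for all protein-coding genes. Among all protein-coding genes 74.3% had an interval within 1 kb of the gene start.

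The sequences that the results turn on are shown next, read from GRCm39 on the coding strand of each gene. Capitals mark the core of the hypoxia response element, ACGTG or GCGTG, on either strand, so that the complement reads CACGT or CACGC. All 5 windows of 200 bases around a summit hold no annotated untranslated sequence. The strongest interval of Epas1 lay in its first intron, and its window (chr17:87077333-87077532, plus strand) held no core. The strongest interval of Egln3 also lay in its first intron and held a pair of summits, at chr12:54238828-54239027 and chr12:54238000-54238199 (minus strand), with 1 and 3 cores. Vegfa is shown at its highest summit in the first intron (chr17:46341840-46342039, minus strand) and at a summit before its start (chr17:46343657-46343856, minus strand), with 2 and 3 cores. The Egln3 window with 3 cores and the upstream Vegfa window were chosen after their values were seen.
Epas1 intron 1: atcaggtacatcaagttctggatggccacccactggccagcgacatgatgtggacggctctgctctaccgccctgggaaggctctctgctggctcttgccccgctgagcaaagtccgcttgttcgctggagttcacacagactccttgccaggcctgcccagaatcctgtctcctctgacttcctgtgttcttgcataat
Egln3 intron 1, highest summit: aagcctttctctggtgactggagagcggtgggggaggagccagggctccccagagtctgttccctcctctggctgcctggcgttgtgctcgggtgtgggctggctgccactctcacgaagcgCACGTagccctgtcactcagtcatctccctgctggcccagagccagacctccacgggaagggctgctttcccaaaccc
Egln3 intron 1, second summit: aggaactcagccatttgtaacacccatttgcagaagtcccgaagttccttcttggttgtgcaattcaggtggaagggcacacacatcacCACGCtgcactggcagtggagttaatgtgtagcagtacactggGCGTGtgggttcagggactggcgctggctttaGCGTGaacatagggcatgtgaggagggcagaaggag
Vegfa intron 1: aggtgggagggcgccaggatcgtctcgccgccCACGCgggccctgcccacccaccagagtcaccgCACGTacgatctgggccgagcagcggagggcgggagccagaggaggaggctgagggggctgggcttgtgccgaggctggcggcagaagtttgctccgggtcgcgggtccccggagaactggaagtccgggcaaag
Vegfa upstream: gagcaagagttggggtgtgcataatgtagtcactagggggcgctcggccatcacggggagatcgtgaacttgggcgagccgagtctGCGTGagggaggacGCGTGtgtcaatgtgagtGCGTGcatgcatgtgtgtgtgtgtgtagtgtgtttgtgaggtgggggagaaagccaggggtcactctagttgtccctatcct

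For Epo and for both alpha subunits, the nearest 120 bases upstream that hold no annotated untranslated sequence are also shown. The start used is the one that most protein-coding transcripts of the gene share, called the shared coding start below, a choice added after the data were seen. Hif1a (chr12:73954450-73954569, plus strand) has the palindrome CACGTG, which is a core on both strands, 64 bases before that start. Epas1 (chr17:87060967-87061086, plus strand) has a GCGTG 133 bases before it, in sequence that stops where its first annotated exon begins. Epo (chr5:137484115-137484234, minus strand) has no core there. A core lies in 27.1% of the 120 bases directly before this start over all 21757 protein-coding genes, and a match is a description of the letters, not of binding.
Epo upstream: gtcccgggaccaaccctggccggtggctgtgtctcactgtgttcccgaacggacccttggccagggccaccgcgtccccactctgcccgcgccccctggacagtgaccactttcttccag
Hif1a upstream: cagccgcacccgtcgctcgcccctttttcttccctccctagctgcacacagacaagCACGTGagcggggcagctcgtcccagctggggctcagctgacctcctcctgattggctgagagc
Epas1 upstream: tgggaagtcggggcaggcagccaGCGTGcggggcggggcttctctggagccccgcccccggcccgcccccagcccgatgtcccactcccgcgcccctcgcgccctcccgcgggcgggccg

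Epo, the hormone of red cell production, had no accessible interval at its coding part. Of the 13 intervals that its annotated region took in, 3 lay within 1 kb of a coding start of another gene, the 2 strongest among them. In GENCODE M39 the gene spans chr5:137481282-137531772 on the minus strand, 50491 bp, because 1 of its 3 coding transcripts begins with a distant first exon that a first intron of 47286 bp separates from the rest. The other 2 start at 137484078, and from there to the gene end the coding block measures 2797 bp. No interval of the pooled list overlapped this block, and the unfiltered summit list held 0 summits in it. The empty stretch was wider than the block, at 7400 bp, and ended at an interval of 2.16-fold on either side. The upstream one lay 3726 bp from the shared coding start and the downstream one 879 bp past the gene end.

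Within 10 kb upstream of the Epo coding start there were 3 intervals, the highest at 2.16-fold, and within 10 kb past its end there were 2, the highest at 3.27-fold. None of these 5 reached 5-fold. The whole list holds no fold enrichment under 1.70, so a weaker opening would not be listed. The nearest interval to the shared coding start, the downstream one, was 3675 bp from it, a distance at the 79.9th percentile of all protein-coding genes. For the other 8 members an interval covered the start itself.

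The strong intervals of the annotated Epo region lay far upstream. The highest, at 42.1-fold (chr5:137498448-137501819), peaked 68 bp from a start of Pop7, a subunit of ribonuclease P, and 16770 bp from the Epo coding start. The next, at 33.3-fold (chr5:137520053-137533978), was 13926 bp wide with 46 summits, and its highest summit lay 1 bp from a start of Gnb2, a G protein beta subunit, and inside the distant first exon of Epo. The fifth, at 4.45-fold, peaked 149 bp from a start of Gigyf1, and the third, at 11.9-fold, 182 bp from a start of the long noncoding RNA Gm8066. The other 9 intervals had 1.77- to 4.58-fold, all but 1 of them in the long first intron. Reads at a shared promoter cannot be assigned to 1 of the genes that start there, so the 33.3-fold at the annotated Epo start is equally a value of Gnb2.

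**Figure D1:**
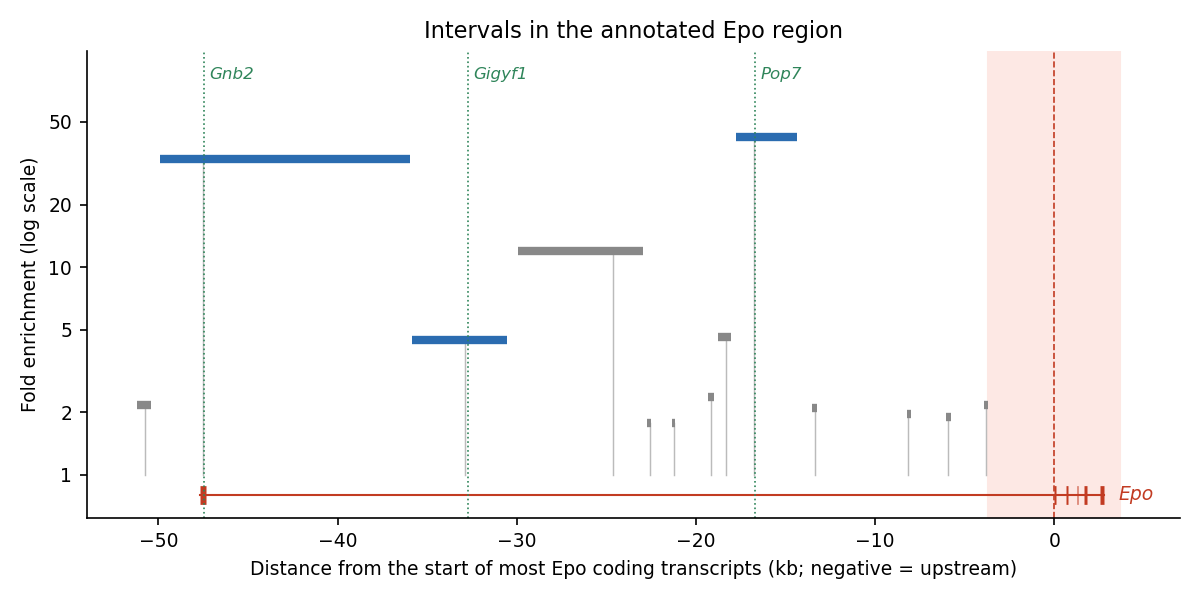
Accessible intervals of the annotated Epo region by distance from the start shared by most Epo coding transcripts (kb, negative upstream) and by fold enrichment (log scale). Horizontal bars span each interval, blue where a coding start of another gene lies within 1 kb. Thin lines mark summits, green dotted lines the starts of Gnb2, Gigyf1 and Pop7, and the red line with blocks the Epo exons. The shaded 7400 bp stretch around the coding exons held no interval.

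In bulk kidney, fewer nuclei of a cell type and less open chromatin per nucleus cannot be told apart. Interstitial cells are a minority in the kidney cortex. Their markers were measured at 4.06-fold (Acta2) to 50.5-fold (Nt5e) at the gene start, with a median of 7.92-fold. Pdgfrb, the pericyte and fibroblast receptor, had 5.63-fold. At the shared coding start all 10 interstitial markers had an interval and Epo had none. The marker list was not limited to the cells that make erythropoietin. The part of cell number in the empty Epo block was not tested.

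Vegfa, the endothelial growth factor secreted by podocytes and tubules, was open over almost its whole length. Its 5 intervals covered 87.1% of the 18391 bp region, at the 94.3rd percentile of protein-coding genes. The gene lies at chr17:46327919-46343309 on the minus strand. A single interval of 10170 bp (chr17:46335188-46345357) ran from upstream of the start into the gene and held 28 summits. The highest, at 30.7-fold, lay 1369 bp downstream of the start in the first intron, and the next, at 29.8-fold, lay 40 bp upstream of it. Summits of 23.6-fold at 4598 bp, 21.4-fold at 448 bp upstream and 20.7-fold at 1723 bp followed. The highest summit also lay 633 bp from a start of the long noncoding RNA Gm65021. A second interval in the fifth intron had 10.7-fold and one over exon 7 had 5.24-fold.

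The 3 GCGTG copies in the upstream Vegfa window shown above lay close to its summit, the nearest beginning 1 base from it and the others 13 bases before and 19 bases after. In the intronic window the cores began 67 and 34 bases before the summit. Of the 10 Vegfa summits of at least 10-fold, 4 had a core within their 200 bases, where 35.9% of all summits of at least 10-fold in the list had one.

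Hif1a, the alpha subunit of HIF-1, carried the highest interval of all 9 genes, but only at the start that its transcripts share. GENCODE places the gene at chr12:73948149-73996321 on the plus strand, and at this start the interval had 5.96-fold, at the 37.4th percentile of protein-coding genes. The start of 17 of 18 coding transcripts lies 6421 bp further on, and there the interval (chr12:73953263-73956604, over the first exon of these transcripts) had 72.3-fold, at the 95.2nd percentile. Its summit fell 10 bp inside that start, and a second summit at 735 bp had 18.4-fold. The CACGTG shown above lies within the 200 bases around the highest summit.

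Further intervals lay before, within and at the end of the annotated Hif1a gene. An interval of 12.2-fold lay 2561 bp before the shared coding start and one of 11.1-fold 8926 bp before it. An interval in intron 4 had 9.43-fold. Past the last exon, 42106 bp from the coding start, an interval of 16.3-fold peaked 31 bp from a start of the noncoding RNA Gm15283, which runs against Hif1a. In all, 6 of 11 intervals of Hif1a reached 5-fold. Over the 103 intervals of the 9 genes 29 did, against 24.5% of all intervals in the pooled list.

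Epas1, the alpha subunit of HIF-2 and the form that drives erythropoietin in the kidney, had the most intervals, 34 over 82752 bp. The gene lies at chr17:87061087-87140838 on the plus strand. This density, 4.11 per 10 kb, was at the 82.9th percentile of protein-coding genes, but 24 of the 34 stayed under 3-fold. The strongest was not at the promoter. It lay in the first intron 16310 bp from the shared coding start with 48.1-fold (chr17:87075231-87077773), and its 200 bases are shown above. The promoter interval (chr17:87059858-87064393) had 40.6-fold at a summit 213 bp upstream, 2 bp from a start of the noncoding RNA Gm56887. Other summits of the same interval had 30.8-fold at 24 bp and 30.4-fold at 367 bp. Apart from these, only 3 intervals reached 5-fold, all in the first intron, at 12215, 23025 and 28237 bp with 7.01-, 5.43- and 5.17-fold.

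Of the 6 Epas1 summits of at least 10-fold, 1 had a HIF core in its window, the GCGTG that begins 80 bases after the promoter summit. The other 5, the intronic one included, had none. Weaker intervals of the gene also held cores, so that 11 of its 34 windows had one.

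Arnt, the beta subunit that both alpha subunits need, showed the opposite layout. Arnt lies at chr3:95341365-95404551 on the plus strand. A single interval at the start (chr3:95340682-95342786) had 56.9-fold, at the 87.6th percentile, and the remaining 6 intervals over 66187 bp reached 4.19-fold at most. Its density of 1.06 intervals per 10 kb was at the 34.6th percentile. The summit lay 260 bp inside the gene. The 300 bp around the start had a GC content of 37.0%, at the 5.34th percentile, which made Arnt the only member with a GC content under 48%. Vhl, the substrate recognition subunit of the ubiquitin ligase that removes the alpha subunits, also had a single interval of at least 5-fold, at its start. It lies at chr6:113600920-113608599 on the plus strand. Its start interval (chr6:113600390-113603009) had 32.9-fold at 114 bp, in the first exon, and the other 3 intervals had 3.73-, 2.36- and 1.77-fold. In this short region they amount to 3.75 intervals per 10 kb, at the 78.4th percentile, and 43.2% of it was covered, whereas in Arnt 6.12% was.

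**Figure D2:**
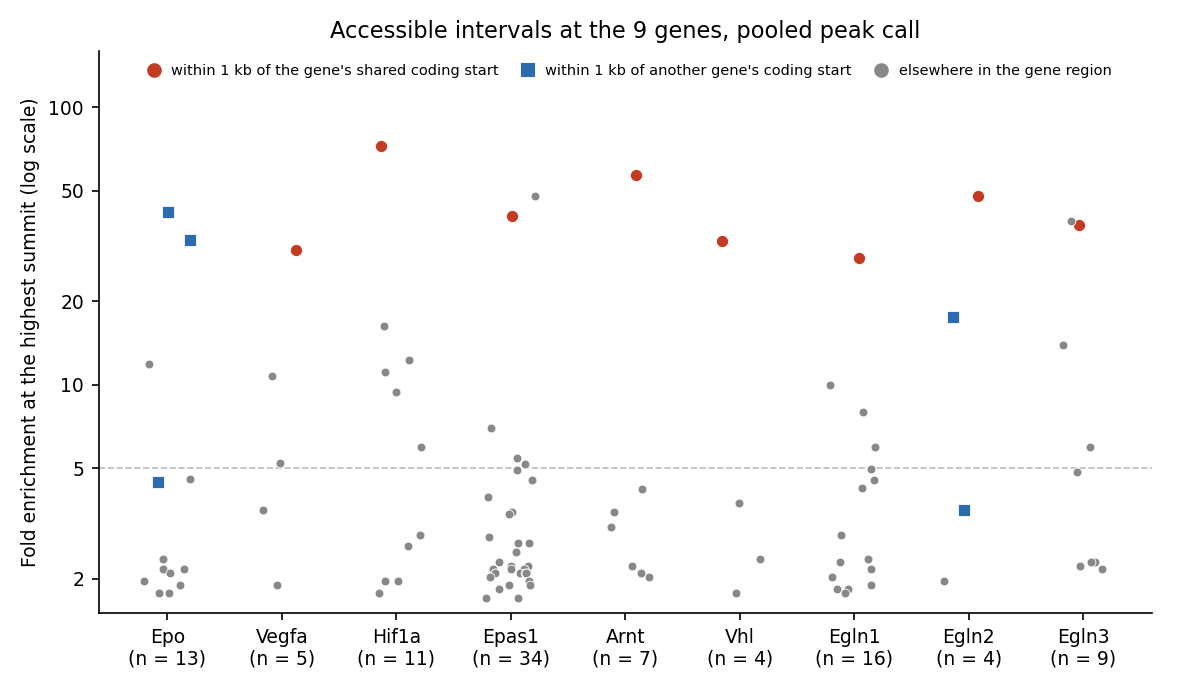
Fold enrichment at the highest summit (log scale) of each of the 103 intervals, by gene. Red points lie within 1 kb of the gene's shared coding start, blue squares within 1 kb of a coding start of another gene, and grey points elsewhere, with a dashed line at 5-fold. Epo has no red point, Arnt and Vhl have a single point above 5-fold, and in Epas1 and Egln3 a grey point is the highest.

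The 3 prolyl hydroxylases differed in where they were open. Egln1 (chr8:125635308-125676865, minus strand), the main oxygen sensor for HIF, had 28.7-fold at its start, the lowest coding-start value of the 8 members with one, above 62.02% of the gene-start values of protein-coding genes. Its highest summit lay 763 bp inside the gene, in the first exon, in a window with a GC content of 87.0%. Of 16 intervals, 3 in introns also reached 5-fold, with 9.95-fold at 23510 bp in the first intron, 7.99-fold in the third and 5.96-fold in the second.

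Egln2 (chr7:26853588-26866408, minus strand) was covered almost completely. One interval of 12372 bp with 29 summits, from upstream of the start far into the gene, brought the covered share of its 15821 bp region to 91.5%, at the 96.0th percentile. The highest summits lay at the start, with 48.1-fold 82 bp before and 47.5-fold 446 bp after the shared coding start. Inside the gene, summits of 18.5-fold and 31.0-fold followed at 4862 and 6764 bp. The gene overlaps others, and the interval touched the annotated bodies of Rab4b, Cyp2t4 and the readthrough gene Gm21983. The second interval, 17.6-fold, peaked 353 bp from a start of Cyp2t4, past the end of Egln2.

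Egln3, the hydroxylase that HIF itself induces in many cells, had its strongest interval away from the start. The gene lies at chr12:54225767-54250673 on the minus strand. In the first intron 11745 bp from the start the interval (chr12:54236807-54240358) reached 38.9-fold, and at 12573 bp its second summit had 30.2-fold. The start interval (chr12:54248108-54253131) had 37.7-fold at 9 bp upstream, and 9 intervals covered 57.8% of the region. Intervals of 13.9-fold at 6288 bp and 5.96-fold at 15868 bp lay in the same intron. In the windows shown above, the CACGT began 23 bases after the higher intronic summit. The 3 GCGTG or CACGC copies around the second began 10 bases before, 33 after and 65 after it. At the start summit itself no core was found.

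**Figure D3:**
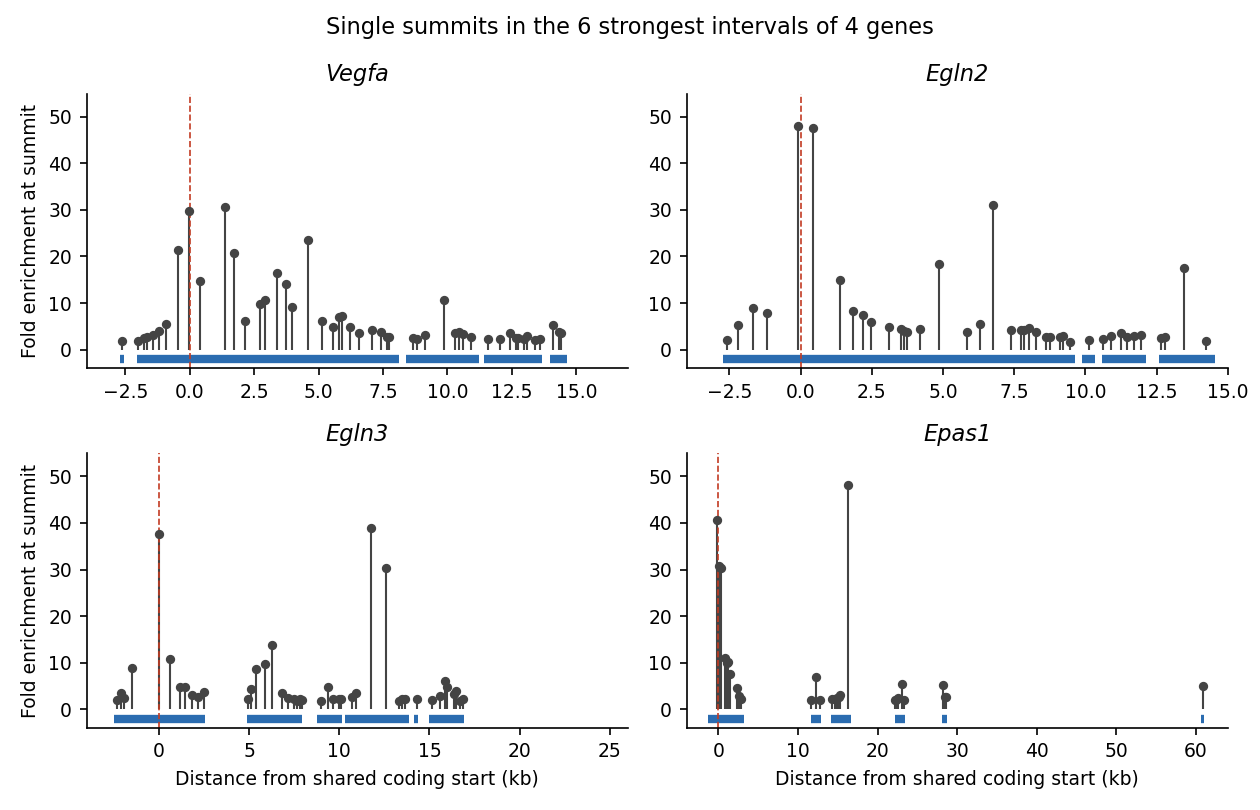
Every summit (vertical lines with points) in up to 6 of the strongest intervals (blue bars) of Vegfa, Egln2, Egln3 and Epas1, by distance from the shared coding start (kb) and fold enrichment on a linear scale. Vegfa and Egln2 show a run of summits within 1 wide interval that includes the start, whereas Egln3 and Epas1 show a separate intronic interval as high as the one at the start.

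Set side by side, all 9 members had an interval within 1 kb of the annotated gene start, against 74.3% of protein-coding genes. All 9 had a fold enrichment of at least 5 there, against 64.3%. With the shared coding start 8 of 9 had one, against 75.5%, and the missing one was Epo. At the gene start the values ran from 5.96-fold for Hif1a over 28.7 for Egln1, 30.7 for Vegfa, 32.9 for Vhl, 33.3 for Epo, 37.7 for Egln3, 40.6 for Epas1 and 48.1 for Egln2 to 56.9-fold for Arnt. The median percentile of the members was 67.1, the value of Epo at the start where Gnb2 also starts. With the shared coding start it was 70.7. All protein-coding genes had a median of 17.5-fold, and those with an interval one of 29.5-fold, so Egln1 lay just below the median of genes with an open start and Vegfa just above it. No replicate error exists to say which neighbours in this order differ.

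The strongest interval lay away from the gene start in 4 members, Epo, Hif1a, Epas1 and Egln3, where 32.3% of genes with intervals had theirs away. With the shared coding start this left 3, against 29.9%, and for Epo the interval belonged to the neighbour Pop7 by position. Epas1 and Egln3 were thus the 2 members with a stronger interval inside the gene than at any start of their own.

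Place was read at the highest summit, against the transcript of each gene that the annotation marks as canonical. By place, 76 of the 103 intervals lay in introns, 57 of them in a first intron, and 10 in exons. A further 13 lay upstream of that transcript and 4 past its end. In Hif1a and Egln2 some of these still lay inside the annotated gene. Their median was 2.62-fold, and 57 had less than 3-fold. Over the whole list the median was 2.55-fold. The 5-fold threshold fell between Egln1 at 4.98-fold and Epas1 at 5.17-fold.

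A HIF core, ACGTG or GCGTG on either strand, was found in 33 of the 103 windows of 200 bases around the highest summits, 32.0% (exact 95% interval 23.2% to 42.0%, counting error only), against 23.2% of the windows of all intervals, which equals the lower bound at this precision. Within 1 kb of an annotated gene start of a protein-coding gene it was 7 of 13 windows, against 45.6%. Away from them it was 26 of 90, or 28.9% (19.8% to 39.4%), against 21.7%. This split did not use the shared coding start. The 72.3-fold Hif1a interval, whose window holds cores, therefore counted as away from starts, and the 5.96-fold one as at a start. The interval of the members away from starts included the share of all such windows. The member windows had a mean GC content of 53.7% and all windows one of 50.8%, and the part of GC content in the difference was not tested. Taken separately, ACGTG was in 16.5% of member windows and 11.0% of all, and GCGTG in 19.4% and 14.2%. The palindrome CACGTG, which contains ACGTG on both strands, was in 4.85% of member windows and 3.85% of all. Without windows that hold it, the core was in 27.2% of the member windows (18.9% to 36.8%) and 19.3% of all, a share that the interval included.

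Other short motifs, searched on both strands, gave low counts. The GC box GGGCGG was in 15 of 103 member windows against 8.15% of all, CCAAT in 20 against 22.8%, and AGATAA, the letters of a GATA site, in 12 against 7.20%. TGANTCA, the AP-1 letters, was in 9 against 12.4%, GTTAAT, as bound by HNF1, in 5 against 7.30%, and CCGGAAG, an ETS site, in 2 against 1.89%. For each of these the exact 95% interval of the member share included the share of all windows, except for GGGCGG, whose interval began at 8.39%. The longer motifs named CRE, HNF4, NRF1 and NF1 were found in 1, 0, 0 and 0 member windows, against 0.405%, 0.884%, 0.101% and 0.0712% of all. Among the 46 summits of at least 10-fold at the 9 genes, 22 had a HIF core in their 200 bases, 47.8%, against 35.9% of all 57866 such summits in the list. The mean GC content of these windows was 63.5% at the 9 genes and 57.2% in the list, and its part was not tested. The 46 summits share intervals and overlap in their windows, so they are not independent.

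The remaining genes of the pathway were also open at their starts. All 20 other HIF pathway components had an interval at the gene start, against 74.3% of all protein-coding genes. Their median was 40.8-fold, against 17.5-fold for all protein-coding genes. The highest were Usp20, a deubiquitinase, with 85.4-fold and Eloc, elongin C of the Vhl ligase, with 83.1-fold. The lowest were P4ha2 and P4htm, both prolyl 4-hydroxylases, with 2.03- and 11.5-fold. P4ha2 had 14.6-fold at its shared coding start. Of 25 glycolytic and metabolic HIF targets 24 had an interval, against 74.3% of all protein-coding genes, with a median of 47.7-fold. Pgk1 (phosphoglycerate kinase) and Gpi1 (glucose phosphate isomerase) led with 74.6- and 69.4-fold, Car12 and Car9, both carbonic anhydrases, were lowest with 6.87- and 13.0-fold, and Hk1, a hexokinase, had none at its start.

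Other HIF targets had an interval in 22 of 25 genes, against 74.3% of all protein-coding genes, with a median of 36.9-fold. The highest were the histone demethylases Kdm4b and Kdm3a with 98.6- and 80.1-fold. The lowest were Ankrd37 and the inducible nitric oxide synthase Nos2 with 3.73- and 7.14-fold. Kdm4c, Edn1 (endothelin 1) and Loxl2 had none at the gene start. At the shared coding start Kdm4c had 79.3-fold and Ankrd37 78.3-fold, and Edn1 and Loxl2 again had none. Among all genes, 9248 with CpG observed over expected above 0.6 in the 300 bp around that start had a median of 38.8-fold there. The other 12509 had 3.14-fold. The HIF pathway list had 42.0-fold there, the glycolytic targets 47.7-fold and the other targets 42.8-fold. The part of CpG content in these medians was not tested.

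Lower medians in the kidney cortex were found for a list of VEGF and angiopoietin genes and for a list of erythroid genes. The VEGF and angiopoietin ligands and receptors had an interval in 13 of 13 genes, against 74.3% of all protein-coding genes. Their median was 8.64-fold, and Vegfa exceeded 11 of them. Vegfc, a lymphatic growth factor, and the coreceptor Nrp1 had 39.02- and 36.60-fold, whereas the angiopoietin receptor Tek and its relative Tie1 had 3.01- and 5.96-fold. The receptor Kdr, which carries the main Vegfa signal in endothelium, had 8.64-fold. Flt1 and Nrp2 had 9.76- and 22.3-fold. Kdr, Tek and Tie1 belong to endothelium. Its 7 markers, which include Kdr and Tie1, had a median of 4.12-fold (2.49-fold for Pecam1 to 8.64-fold for Kdr). The part of endothelial cell number was not tested.

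Of 14 genes of the erythropoietin response and the red cell lineage 9 had an interval at the gene start, 64.3% against 74.3% of all protein-coding genes, with a median of 5.56-fold. Gata1, Hbb-bs, Hbb-bt, Hba-a1 and Alas2, which encode a master regulator, globin chains and the first enzyme of red cell haem synthesis, had none. Klf1 had the highest value, 41.0-fold, followed by the erythropoietin receptor Epor with 14.6-fold, and the lowest were Hamp (hepcidin) with 3.27-fold and Hba-a2 with 3.54-fold. The globin genes have near-identical copies, and since reads that mapped to several places were removed, an absent interval there is uncertain.

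**Figure D4:**
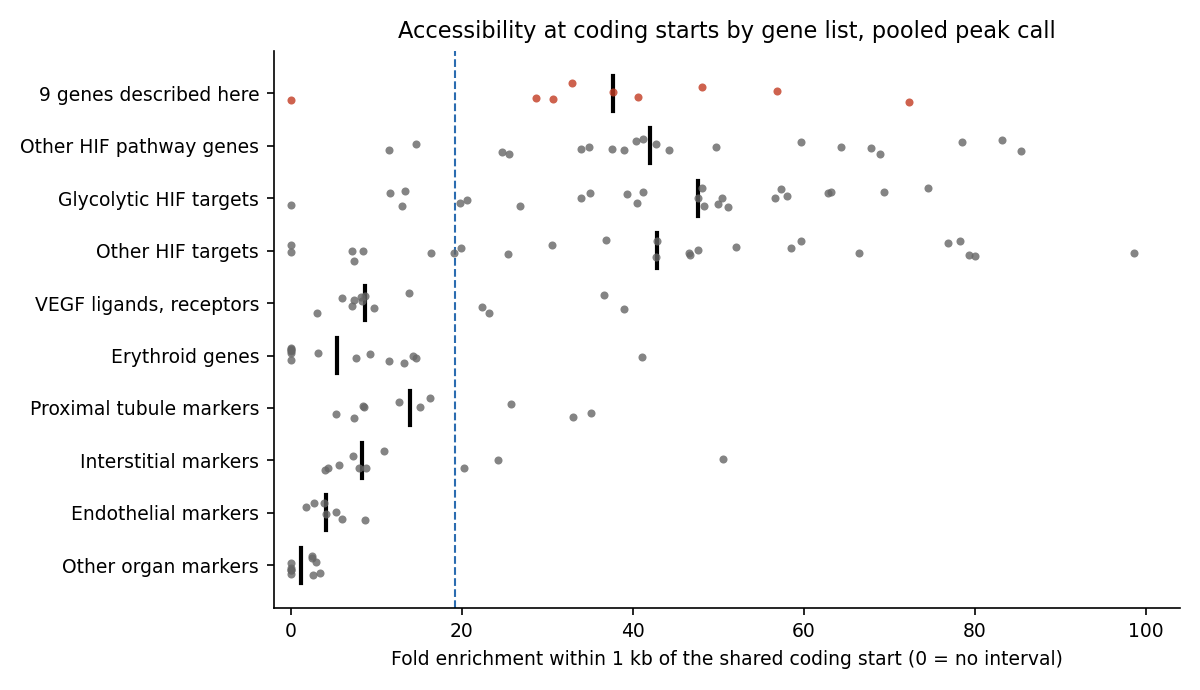
Fold enrichment within 1 kb of the shared coding start (0 where no interval was called), 1 point per gene, for the 9 genes described here (red) and for other gene lists (grey). Black bars are list medians and the blue dashed line is the median of all protein-coding genes, 19.2-fold. Among the red points Epo is the one at 0, and the medians of the HIF lists lie to the right of the VEGF, erythroid and endothelial lists.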

How the data were processed

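The series holds ATAC-seq of nuclei from 3 WT and 3 Acly cKO kidneys, and WT libraries of an earlier deposit may also be in the pooled call. By their methods, the authors trimmed the reads, aligned them to mm39 with Bowtie2 2.3.4.3, removed duplicates and multiply mapped reads, called peaks over the pool with MACS3 3.0.0 at a q of 0.05 and filtered them with bedtools 2.29.1 (versions from the submitters' processing notes). The deposited list gives, per summit, a fold enrichment over background (a linear ratio) and the −log10 q-value, and a score that the authors' caller derived from q. Summits sharing 1 interval were merged and the highest by q was kept. Depth per library is unknown. Coordinates count from 1. A percentile is the share of 21757 protein-coding genes below a value, ties counted to the middle, with 0 for genes without an interval. Members, gene lists and motifs were chosen with earlier results of these data known. Named from each list were genes without an interval and the 2 highest and 2 lowest. The code was tested on simulated data. Python 3.11.15, pandas 2.3.3, pysam 0.24.0 and scipy 1.17.1 were used.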

Additional observations from a re-analysis of the deposited data

How the results depend on the processing

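No paired analysis was possible because the deposited call pools all libraries, and for the same reason no replicate could be left out. The number of intervals at the 9 genes, 103, fell to 53 at a q under 1e-05 and to 29 at a fold enrichment of at least 5, and summits counted singly gave 438. It was 93 at a q under 0.01, 95 in gene bodies alone and 90 without Epo. Members with an interval at the gene start numbered 9, and 8 when the highest summit had to lie within 1 kb, which left out Vegfa. The median percentile of the gene-start value, 67.1, became 69.0 with any annotated transcript start, 55.8 without genes that lack an interval, 70.8 with the highest summit within 1 kb and 70.7 with the shared coding start, which was added after the data were seen. The median percentile by intervals per 10 kb, 63.9, became 70.89 at a q under 1e-05, 70.93 at a fold of at least 5 and 62.7 for genes of at least 10 kb. The share of windows with a HIF core, 32.0%, became 22.3% in 100 bp (13.7% of all windows), 54.4% in 400 bp (37.3%) and 16.5% with ACGTG alone (11.0%). The median of the strongest fold, 42.1, was that of the Epo interval at Pop7. It became 47.2 with 10 kb on either side, where neighbours of Vhl and Egln2 entered. Without intervals at other coding starts it was 38.9, and Epo fell to 11.9. The lowest fold enrichment in the list was 1.70, so an absent interval does not show closed chromatin, and with depth per library unknown its limit cannot be set for single libraries.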
